A study of Mus musculus with 7 samples.

Results

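The 35 genes described here encode glycolytic enzymes and transporters (23 genes) and the components and targets of the hypoxia response (12 genes). They were chosen by name from the 22629 rows of a gene count table of mouse PDA tumors, and all 35 were present and passed the filter on low counts. The symbol Aldoa stands on a pair of rows, of which the one with 222095 counts over the 7 tumors was used and the one with 103 was not. The question was whether s/c tumors that express an intracytoplasmic model antigen differ in these genes from tumors that do not, and how far tumors of the same group differ from each other.

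The tumors were formed in the flank of young adult C57BL/6 mice with 1242 cells, a PDA line from a tumor of the KPC mouse, a model driven in the pancreas by Pdx1-Cre, and were harvested 2 weeks after inoculation. Both groups, the 3 tumors labelled scramble (tumors 1, 4 and 5) and the 4 labelled scrambleOVA (tumors 15, 16, 18 and 2), carry the sgScramble control guide, which edits no gene of interest, with the Cas9 nuclease. They are called sgScramble and icOVA tumors here. The icOVA tumors hold a doxycycline (Dox)-inducible cytoplasmic ovalbumin. According to the methods, the cells with that vector were sorted and cloned from single cells, were inoculated in larger number and were induced with Dox food from the day of inoculation. The paper describes s/c tumors of vector-bearing cells, formed with or without continuous Dox, and compares them by staining and growth. Whether the sequenced sgScramble tumors were of that kind is not stated. Nor is it stated whether they received Dox, held the vector or came from a clone. Ovalbumin, Dox, clone and cell number therefore cannot be told apart. Every tumor is a sample of its own, but no source says that each came from its own mouse, and the p values measure the spread between these samples alone. Total counts ran from 30904855 to 37510591. The OVA row held 85 to 151 counts in the sgScramble tumors and 3413 to 10750 in the icOVA tumors. The higher counts thus lay in the group labelled scrambleOVA, but the sgScramble tumors also held OVA reads, whose source was not tested. None of the 8 markers of epithelial cancer cells was at 0 in all tumors.

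Glycolysis splits glucose into pyruvate in the cytoplasm. Glucose enters through transporters such as SLC2A1, is trapped by hexokinase, and is committed to the pathway by phosphofructokinase, after which the lower steps yield ATP and pyruvate. Pyruvate is either reduced to lactate and exported or passed to the mitochondria. When oxygen is scarce, the prolyl hydroxylases that mark HIF-1α for destruction slow down, and HIF-1α accumulates and induces genes of glucose uptake, lactate production, acid handling and vessel growth through a short DNA element, the hypoxia response element, whose core reads ACGTG or GCGTG. PDA is known for dense stroma and poor perfusion.

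The promoters of these genes were examined for that core because it is the element through which HIF acts. RefSeq promoter windows (GRCm38.p6, 250 bases before to 50 after each gene start) were found for 34 of the 35 genes, all but Ndrg1. ACGTG was present on either strand in 23 of these 34 genes (67.6%). The share was 27.9% of the 11980 tested genes with a window and 21.8% of all 27025 genes with a window. GCGTG was present in 22 (64.7%), against 52.5% of the tested genes and 35.2% of all genes. A gene counted if any of its windows held the motif, and some genes have several windows. By window, ACGTG was present in 54.2% of the 48 windows of the 34 genes, against 24.1% of the 15277 windows of the tested genes. GCGTG was present in 56.25% of the former and 46.9% of the latter. Of the 11 hypoxia response genes with a window, 9 held ACGTG. The palindrome CACGTG counts as a match on both strands, and matches of the 2 motifs can overlap. A match describes the letters and does not mark a bound site.

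Shown here are the 250 bases before the start of 5 genes on which the results turn, 5′ to 3′ on the strand of the gene with every ACGTG and GCGTG of either strand in capitals. Slc16a3 encodes the lactate exporter that differed between the groups, and Slc16a1 its relative with the smallest spread between tumors. Ldha has the window with the most ACGTG matches, and Adm and Car9 had the largest spread between tumors. The windows lie at chr11:120948817-120949066, chr3:104638414-104638663, chr7:46845554-46845803, chr7:110627407-110627656 and chr4:43506776-43507025, all on the plus strand. The starts used here are those of RefSeq. In Slc16a3, Ldha and Car9 they lie inside the gene as the GENCODE annotation places it, from bases 120948480, 46841475 and 43506966 on.
Slc16a3: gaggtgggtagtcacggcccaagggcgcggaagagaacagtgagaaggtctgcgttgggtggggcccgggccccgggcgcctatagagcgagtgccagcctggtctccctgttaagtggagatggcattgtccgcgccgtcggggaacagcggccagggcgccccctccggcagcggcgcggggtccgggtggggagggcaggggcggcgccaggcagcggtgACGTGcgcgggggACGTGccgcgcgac
Slc16a1: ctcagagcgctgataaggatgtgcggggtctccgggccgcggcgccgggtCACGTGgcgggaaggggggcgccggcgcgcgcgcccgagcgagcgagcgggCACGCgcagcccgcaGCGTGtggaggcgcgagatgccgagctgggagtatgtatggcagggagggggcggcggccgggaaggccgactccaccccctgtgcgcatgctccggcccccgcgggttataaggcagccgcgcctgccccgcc
Ldha: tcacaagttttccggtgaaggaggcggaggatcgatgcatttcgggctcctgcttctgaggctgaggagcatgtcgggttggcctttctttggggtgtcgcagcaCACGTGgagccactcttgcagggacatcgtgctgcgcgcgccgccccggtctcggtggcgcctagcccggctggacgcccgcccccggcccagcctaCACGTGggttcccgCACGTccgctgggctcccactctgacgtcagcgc
Adm: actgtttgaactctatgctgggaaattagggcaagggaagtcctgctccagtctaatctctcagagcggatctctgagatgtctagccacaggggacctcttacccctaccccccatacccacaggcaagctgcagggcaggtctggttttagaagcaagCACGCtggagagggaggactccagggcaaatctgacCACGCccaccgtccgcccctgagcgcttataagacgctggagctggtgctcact
Car9: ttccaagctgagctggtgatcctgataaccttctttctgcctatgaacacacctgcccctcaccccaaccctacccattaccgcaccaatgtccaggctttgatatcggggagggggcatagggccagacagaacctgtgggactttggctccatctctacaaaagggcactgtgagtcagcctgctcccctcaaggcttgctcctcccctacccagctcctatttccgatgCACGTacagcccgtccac
In Slc16a3 both copies of ACGTG read on the gene strand and begin 27 and 14 bases before the start. Adm held no ACGTG here but GCGTG on the opposite strand, at 90 and 54 bases, and Car9 held a single ACGTG on the opposite strand at 18 bases.

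Of the glycolysis and hypoxia genes, the lactate exporter gene Slc16a3 alone passed the test between the groups. The edgeR quasi-likelihood test, adjusted by Benjamini-Hochberg over 17489 genes, called 1 of the 35 higher in the icOVA tumors and none lower. Across all genes 5.9% were called, 3.36% as higher and 2.54% as lower. At an unadjusted p under 0.05 there were 2 of the 35, Slc16a3 and Pfkm, against 27.2% of all genes. DESeq2 called Slc16a3 alone, where it called 16.2% of all genes, and limma-voom called none, where it called 5.38% of all genes. The log2 fold changes, always icOVA over sgScramble, ran from -0.48 (Aldoc) to 0.67 (Eno2), with a median of 0.06, while the median over all genes was -0.0048. Of the 35 genes 21 lay above 0, against 49.4% of all genes. Of the 23 glycolytic genes 17 had a value above 0, and of the 12 hypoxia response genes 4 did, with a median of -0.11. The median over the 35 genes depended on single tumors. With 1 tumor left out at a time it ran from -0.08 without icOVA tumor 16, where its sign turned, to 0.15 without sgScramble tumor 1.

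**Figure D1:**
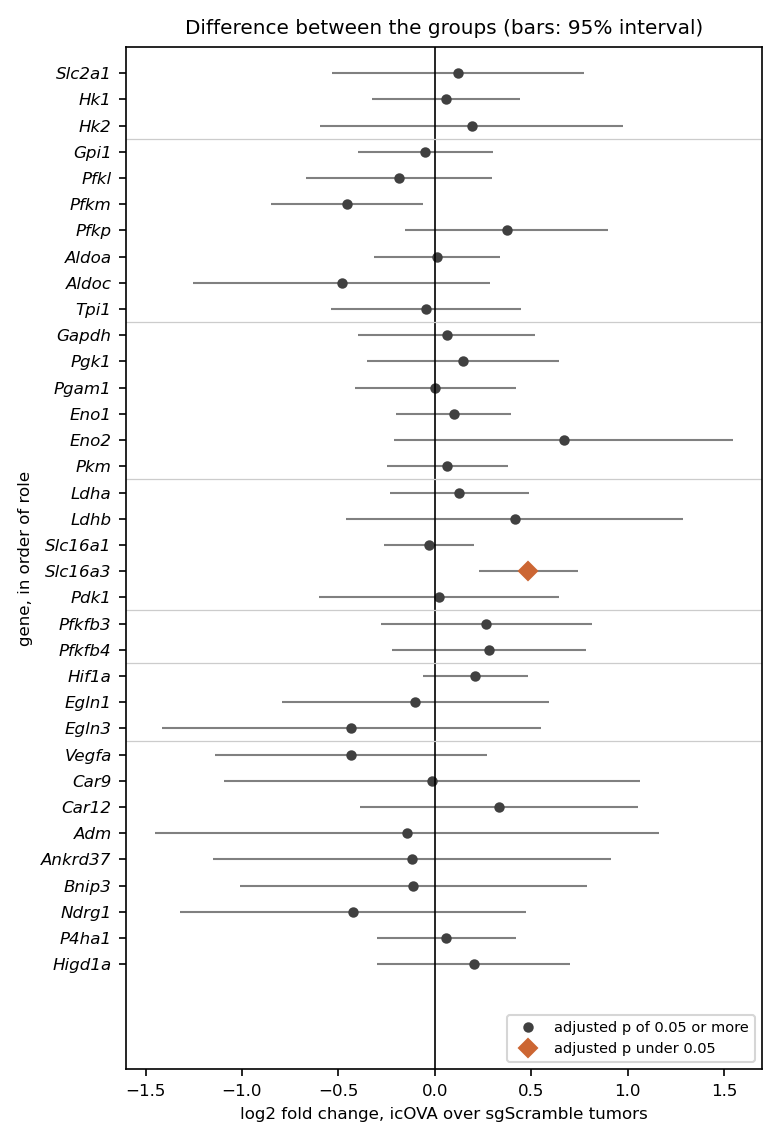
Log2 fold change of each of the 35 genes, icOVA over sgScramble tumors, on the horizontal axis, with genes in order of role on the vertical axis and bars for the 95% interval. The diamond for Slc16a3 (0.49) is the single gene past the adjusted threshold, and the intervals of the hypoxia targets Adm (-1.45 to 1.16) and Car9 (-1.09 to 1.06) are among the widest.

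Glucose import and phosphorylation come first. Slc2a1 encodes the main glucose transporter of many carcinomas. Its level was 277, 182 and 202 CPM (counts scaled to library size with TMM) in sgScramble tumors 1, 4 and 5 and 208, 332, 142 and 276 CPM in icOVA tumors 15, 16, 18 and 2. The icOVA tumors held both the highest and the lowest value, and the log2 fold change of 0.12 (SE 0.28) did not pass the test (edgeR adjusted p = 0.811). Hk2, the inducible hexokinase, was at 364, 191 and 279 CPM in the sgScramble tumors and at 319, 395, 157 and 398 CPM in the icOVA tumors. The groups overlapped throughout (log2 fold change 0.19, SE 0.34, edgeR adjusted p = 0.749). Hk1, the housekeeping hexokinase, varied less, from 179 to 228 CPM against 158 to 261 CPM.

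The upper steps held both genes whose estimates lay farthest below 0. Pfkm, the muscle-type phosphofructokinase, was at 49.8, 41.7 and 47.3 CPM in the sgScramble tumors. In the icOVA tumors it was at 30.8, 45.7, 29.7 and 28.6 CPM. All but icOVA tumor 16 lay below the sgScramble tumors, and the log2 fold change of -0.46 (SE 0.17, unadjusted p = 0.0280) missed the adjusted threshold in edgeR (adjusted p = 0.136). Without tumor 16 the edgeR test called Pfkm lower (-0.64, adjusted p = 0.0214). The summed level of 10 skeletal muscle markers was 88.9, 121 and 13.4 CPM in the sgScramble tumors and 96.0, 221, 98.7 and 11.4 CPM in the icOVA tumors, also highest in tumor 16. None of the 10 was called or at 0 in all tumors, and their part in the Pfkm values was not tested. Pfkm overlaps Senp1 on the other strand, which had 15751 counts against 9268 for Pfkm, and it is not stated whether the counting used strand. Pfkp, the platelet-type enzyme, had a log2 fold change of 0.37 (SE 0.23, edgeR adjusted p = 0.324) and was called higher when icOVA tumor 18 was left out (0.55, edgeR adjusted p = 0.0475). Its counts could likewise include reads of Pitrm1, on the other strand. Aldoc, an aldolase known from brain, had the lowest estimate of the 35 with a wide interval, -1.25 to 0.29. The estimates of Gpi1, Pfkl, Aldoa and Tpi1 lay between -0.18 and 0.01, with the sign for Aldoa turning when library totals were used and with limma-voom.

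Gapdh, Pkm and Pgam1 of the lower steps had the highest levels per length of the 35 genes. In the sgScramble tumors they stood at 572 ± 49.9, 392 ± 26.3 and 363 ± 36.0 CPM per kb of exon (SD, n = 3). With the length of the principal transcript in place of all exons, the third was Aldoa. Gapdh, which makes the NADH of the pathway, was at 2602, 2221 and 2275 CPM in the sgScramble tumors and 2402, 3055, 1667 and 2749 CPM in the icOVA tumors. The 3 sgScramble values all fell inside the icOVA range, with a log2 fold change of 0.06 (SE 0.20, edgeR adjusted p = 0.865). Pkm, the pyruvate kinase of the last step, was at 2032, 2044 and 1810 CPM against 1917, 2447, 1711 and 2130 CPM. Pgam1, the phosphoglycerate mutase, was at 791, 648 and 718 CPM against 673, 889, 517 and 805 CPM, and the sign of its estimate (0.0029) turned with library totals, upper quartile scaling and limma-voom. As with Gapdh, icOVA tumor 16 held the highest and tumor 18 the lowest value of both. Pgk1, which makes the first ATP of the lower steps, was at 827, 709 and 729 CPM against 830, 1050, 526 and 934 CPM (log2 fold change 0.15, SE 0.21, edgeR adjusted p = 0.696). Eno1 and its neuronal relative Eno2 had estimates of 0.10 and 0.67, neither past the test, and summing Eno1 with its near-copy Eno1b left the first at 0.10.

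The fate of pyruvate held the single called gene. Slc16a3 (chr11:120948480-120960868, GRCm38, plus strand) encodes MCT4, a monocarboxylate transporter with which glycolytic cells release lactate. It was at 61.6, 54.8 and 54.5 CPM in the sgScramble tumors and 76.4, 92.2, 67.8 and 82.7 CPM in the icOVA tumors. Every icOVA tumor lay above every sgScramble tumor, as was so for 11.3% of all genes, while 13.3% showed the opposite and 24.7% in all did not overlap. The log2 fold change was 0.49 (SE 0.11), a 1.40-fold difference, with an edgeR adjusted p of 0.0460 that lay close to the threshold. The call was lost with limma-voom (adjusted p = 0.0520) and without the filter on low counts (edgeR adjusted p = 0.0534), and held with DESeq2 (adjusted p = 0.00205). When tumors were left out in turn the log2 fold change stayed between 0.41 and 0.56, and the edgeR call was kept only without icOVA tumor 16 or 18, the adjusted p values of the 7 fits being 0.0269 to 0.199. MCT4 is also abundant in activated macrophages and other leukocytes. Of 8 leukocyte markers 5 were called higher in the icOVA tumors (Ptprc, Cd3e, Cd3d, Cd4 and Lcp1), none was at 0 in all tumors, and their summed level was 461 to 647 CPM in the sgScramble and 860 to 1189 CPM in the icOVA tumors. Of 7 macrophage markers 1, Cd68, was called, with summed levels of 894 to 1230 CPM and 1235 to 1841 CPM. Their part in the Slc16a3 difference was not tested, and in bulk RNA more cells of a type and more RNA per cell cannot be told apart.

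The other genes at this branch showed no called difference. Slc16a1 encodes MCT1, which carries lactate in either direction. It was at 261, 228 and 249 CPM in the sgScramble tumors and 222, 280, 222 and 240 CPM in the icOVA tumors, the narrowest spread of the 35 genes (log2 fold change -0.03, SE 0.10, edgeR adjusted p = 0.864). Ldha, which turns pyruvate into lactate, was at 1004, 926 and 921 CPM against 1023, 1245, 770 and 1115 CPM. Again the icOVA values enclosed the sgScramble values (log2 fold change 0.13, SE 0.16, edgeR adjusted p = 0.631). Pdk1, a kinase that closes the entry of pyruvate into the mitochondria, was at 109, 75.9 and 91.2 CPM against 97.6, 118, 51.2 and 108 CPM. Its log2 fold change was 0.02 (SE 0.27, edgeR adjusted p = 0.967), and the sign turned with limma-voom. Pfkfb3 and Pfkfb4, which set the level of the activator of phosphofructokinase, had estimates of 0.27 and 0.28 that did not pass the test.

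**Figure D2:**
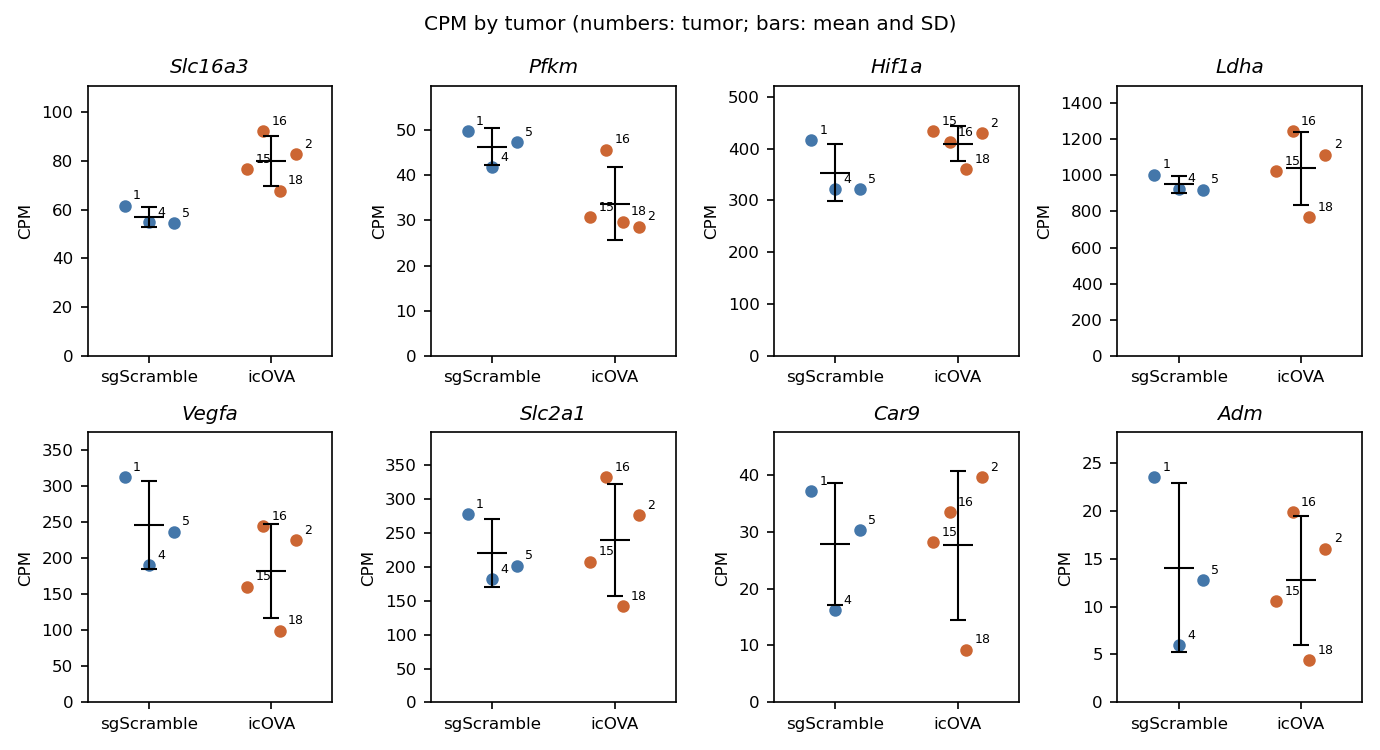
CPM of 8 genes in each tumor (vertical axes, from 0), sgScramble in blue and icOVA in orange, with tumor numbers beside the points and black bars for the mean and SD. Slc16a3 shows no overlap between the groups (54.5 to 61.6 against 67.8 to 92.2 CPM), whereas Adm and Car9 span 5.95 to 23.5 and 16.2 to 37.1 CPM within the sgScramble group alone.

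None of the 12 hypoxia response genes was called in either direction by edgeR, DESeq2 or limma-voom, which called 5.9%, 16.2% and 5.38% of all genes, so that a count of 0 among 12 is close to these shares for edgeR and limma-voom. None had an unadjusted p under 0.05 in edgeR, against 27.2% of all genes. Hif1a, the oxygen-regulated HIF subunit, which is controlled mainly at the protein level, was at 417, 323 and 322 CPM in the sgScramble tumors and 434, 413, 361 and 430 CPM in the icOVA tumors. Of the sgScramble tumors only tumor 1 lay within the icOVA range, and the log2 fold change was 0.21 (SE 0.12, edgeR adjusted p = 0.287). Vegfa, the vessel growth factor, was at 312, 191 and 237 CPM against 161, 244, 99.8 and 225 CPM. The lowest value was that of icOVA tumor 18, with sgScramble tumor 1 the highest (log2 fold change -0.44, SE 0.30, edgeR adjusted p = 0.387). Car9, a carbonic anhydrase on the cell surface that is widely used as a hypoxia marker, was at 37.1, 16.2 and 30.3 CPM against 28.1, 33.4, 9.29 and 39.5 CPM. The group estimate was -0.02 (SE 0.47, edgeR adjusted p = 0.985) with a 95% interval of -1.09 to 1.06.

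The widest spread of all belonged to Adm, Car9 and Ankrd37. Adm encodes adrenomedullin, a vasodilator peptide. It was at 23.5, 5.95 and 12.8 CPM in the sgScramble tumors and 10.6, 19.9, 4.40 and 16.04 CPM in the icOVA tumors, a 5.33-fold range over the 7. Ankrd37, a small ankyrin repeat protein gene induced by HIF-1, was at 17.9, 6.47 and 13.7 CPM against 10.2, 16.9, 5.18 and 14.5 CPM. In both genes sgScramble tumor 4 and icOVA tumor 18 were low, and sgScramble tumor 1 and icOVA tumor 16 were high in their groups. Ankrd37 shares its locus with Ufsp2 on the other strand, which had 10509 counts against 2875. The pooled SD of log2 CPM within the groups was 0.97 for Adm, 0.83 for Car9 and 0.75 for Ankrd37, and that of Egln3, the prolyl hydroxylase next in order, was also 0.75. Egln3, Bnip3 (mitophagy) and Ndrg1 (a stress gene), which were picked after their values were seen, had the same order of tumors within the groups as Adm. Egln3 was at 258, 126 and 235 CPM against 143, 216, 59.2 and 194 CPM.

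Most of these genes varied more between tumors of the same group than the typical gene did. The median pooled SD of log2 CPM was 0.35 over the 35 genes and 0.20 over all genes tested, and 30 of the 35 lay above the latter. For genes whose mean count fell between the quartiles of the 35 the median was 0.12. The glycolytic genes had a median SD of 0.33 and the hypoxia response genes of 0.58. A list of 28 other hypoxia targets had 0.41. In contrast, 21 genes of pyruvate dehydrogenase and the TCA cycle had 0.081, with 0 of 21 above the median of all genes. Much of the spread came from icOVA tumor 18. Without it the medians were 0.21 for the 35 genes, 0.18 for the glycolytic genes, 0.38 for the hypoxia response genes, 0.32 for the other hypoxia targets and 0.072 for the TCA list, against 0.17 for all genes. These are descriptions with no test. The smallest spread within the 35 was that of Slc16a1 (0.14), Slc16a3 (0.16) and Hif1a (0.17).

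**Figure D3:**
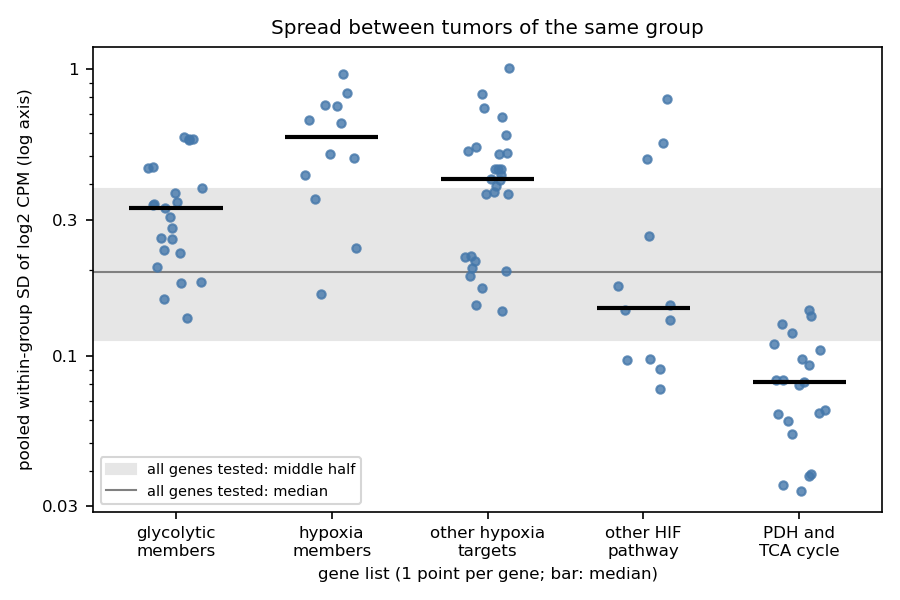
Pooled within-group SD of log2 CPM (vertical log axis) for each gene of 5 lists, 1 point per gene, with bars at the medians, and the median and interquartile band of all genes tested in grey. The hypoxia response genes (median 0.58) lie highest and the TCA cycle genes (median 0.081) lie below the median of all genes (0.20).

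The tumors fell in a similar order in most of the 35 genes. Tumor 18 was the lowest of the 4 icOVA tumors in 29 of 35 genes and the lowest of all 7 in 26, against 35.6% and 26.4% of all genes. Tumor 16 was the highest icOVA tumor in 28 genes and the highest of all 7 in 20, against 28.7% and 10.6% of all genes. Among the sgScramble tumors, tumor 1 was the highest in 31 genes and tumor 4 the lowest in 25, against 28.6% and 37.8% of all genes. These genes share the same 7 libraries and are not independent of each other. Relative to its mean over the 7 tumors, the median log2 CPM of the 35 genes was 0.16, -0.15 and -0.01 in sgScramble tumors 1, 4 and 5. In icOVA tumors 15, 16, 18 and 2 it was -0.05, 0.35, -0.51 and 0.20. For the 12 hypoxia response genes the same values were 0.57, -0.30 and 0.13, then -0.10, 0.42, -1.04 and 0.26. The TCA list stayed between -0.03 and 0.05 in every tumor.

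**Figure D4:**
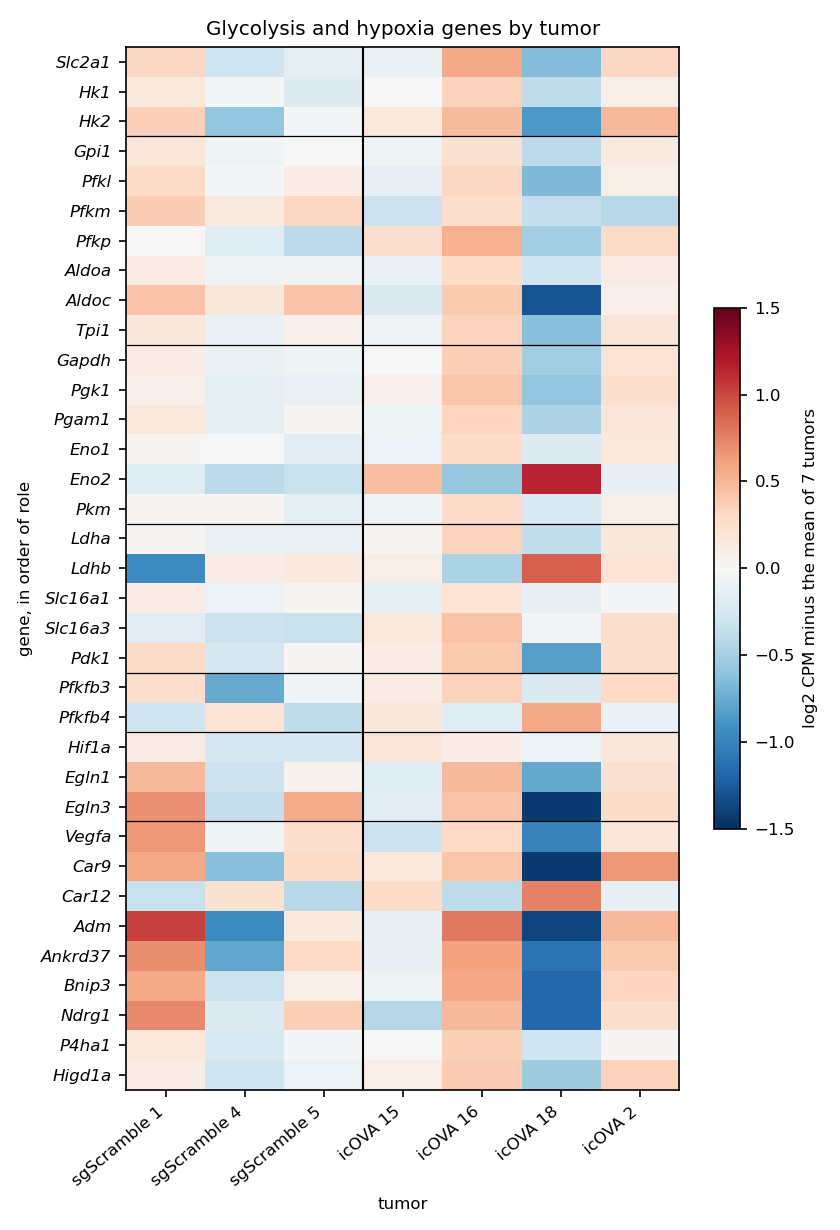
Log2 CPM of each of the 35 genes minus its mean over the 7 tumors (color), genes in order of role and tumors in columns, with a vertical line between the groups. The column of icOVA tumor 18 is low in most genes (lowest of all 7 in 26), with Eno2, Ldhb, Car12 and Pfkfb4 high instead, and those of icOVA tumor 16 and sgScramble tumor 1 are high.

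A few genes ran against this order, and were picked after their values were seen. Ldhb, the lactate dehydrogenase of oxidative tissues, was highest in icOVA tumor 18 (8.43 CPM) and lowest in sgScramble tumor 1 (2.33 CPM). Eno2 reached 11.4 CPM in tumor 18 and 3.50 to 7.08 CPM in the other icOVA tumors. Car12, a carbonic anhydrase, and Pfkfb4 also peaked in tumor 18, at 4.06 and 29.6 CPM.

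Marker sums of several cell types also differed between the tumors. The summed level of 7 fibroblast markers, all of them present, was 7173, 15789 and 6714 CPM in sgScramble tumors 1, 4 and 5 and 26717, 5635, 36812 and 9193 CPM in icOVA tumors 15, 16, 18 and 2. It was highest in icOVA tumor 18 and, in its group, in sgScramble tumor 4, and lowest in icOVA tumor 16. For the sum, that is the reverse of the order seen in most of the 35 genes at these tumors. Most of the sum is collagen, with Col1a1, Col1a2 and Col3a1 at 11678, 10135 and 13521 CPM in tumor 18. Each marker was highest in tumor 18. Pdgfra, Pdgfrb and Dcn, however, were lowest in sgScramble tumor 5 (Dcn at 127 CPM, against 149 CPM in icOVA tumor 16). The 8 epithelial markers summed to 2934 CPM in tumor 18 and to 4631 to 5000 CPM in the others. The 7 endothelial markers summed to 206 to 297 CPM in the sgScramble tumors and 230 to 607 CPM in the icOVA tumors, with tumor 18 again highest. None of the 22 fibroblast, epithelial and endothelial markers was called between the groups by edgeR, against 5.9% of all genes. None was at 0 in all tumors. At an unadjusted edgeR p under 0.05 there were 6 of the 7 endothelial markers and 0 of the others, against 27.2% of all genes. All 7 endothelial and all 7 fibroblast estimates lay above 0, with medians of 0.85 and 0.93, as did 5 of the 8 epithelial ones. The part of these markers in the spread of the glycolysis and hypoxia genes was not tested.

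Ratios within isoform pairs do not depend on how the libraries are scaled. Levels here are CPM per kb of exon, and a ratio moves by the same factor in every tumor when the length of the principal transcript is used instead. Ldha exceeded Ldhb by 87.0 to 204-fold in the sgScramble tumors and 43.3 to 181-fold in the icOVA tumors. Eno1 exceeded Eno2 by 188 to 221-fold and 66.8 to 301-fold. By the principal transcript these ranges were 135 to 318 and 67.4 to 281 for the first pair and 297 to 348 and 105 to 475 for the second. The ratio of Slc16a1 to Slc16a3 was 5.01 to 5.50 in the sgScramble and 3.48 to 3.94 in the icOVA tumors. That of Pfkp to Pfkl was 0.47 to 0.60 and 0.75 to 0.87, and that of Aldoa to Aldoc 29.6 to 35.3 and 38.01 to 81.6. By the principal transcript Pfkp to Pfkl was 0.85 to 1.09 and 1.35 to 1.57, and Aldoa to Aldoc 48.6 to 58.1 and 62.5 to 134. These 3 of 10 pairs did not overlap between the groups, beside 24.7% of single genes, and no test was made of them. Hk2 over Hk1 was 1.36 to 2.28 and 1.42 to 2.61, but lay on either side of 1 when the length of the principal transcript was used, so that neither the order of the 2 hexokinases nor that of Pfkp and Pfkl is settled by these counts.

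Of the other genes of these pathways, 83 in 4 lists were tested, and edgeR called 4 higher and 2 lower in the icOVA tumors, beside 3.36% and 2.54% of all genes. Among 23 other glycolysis genes Slc2a3 and Hk3 were higher and Bpgm and Pdk2 lower. Slc2a3, a high-affinity glucose transporter of leukocytes and neurons, was at 10.7, 10.1 and 7.99 CPM in the sgScramble tumors and 23.3, 18.2, 19.3 and 20.2 CPM in the icOVA tumors. That was a log2 fold change of 1.08 (SE 0.14, edgeR adjusted p = 0.0230). Hk3, the hexokinase of myeloid cells, was at 51.9, 67.2 and 45.8 CPM against 85.9, 86.2, 88.3 and 84.2 CPM (0.65, SE 0.12, edgeR adjusted p = 0.0328). Both transporter and hexokinase were higher in every icOVA tumor than in any sgScramble tumor, as were 11.3% of all genes. They are shown because they passed the test on these same values. The leukocyte marker sums are given with Slc16a3, and their part here was not tested.

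Bpgm, which makes the red cell metabolite that lowers the oxygen affinity of hemoglobin, was at 79.3, 88.3 and 105 CPM in the sgScramble tumors and 38.5, 59.8, 43.1 and 43.4 CPM in the icOVA tumors (log2 fold change -0.98, SE 0.16, edgeR adjusted p = 0.0271). All 5 erythroid markers had estimates above 0, none of them called. Pdk2, a sister kinase of Pdk1, was at 16.4, 11.2 and 17.0 CPM against 6.97, 7.05, 9.32 and 7.65 CPM (-0.94, SE 0.18, edgeR adjusted p = 0.0328). Both genes were lower in all 4 icOVA tumors than in any sgScramble tumor, as were 13.3% of all genes.

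Among 28 other hypoxia targets 2 were higher and none lower. Angptl4, an inhibitor of lipoprotein lipase, was at 89.0, 100 and 67.7 CPM against 126, 155, 164 and 144 CPM (0.78, SE 0.15, edgeR adjusted p = 0.0315). Hmox1, the heme oxygenase, which also answers heme and oxidative stress and is abundant in macrophages, was at 94.2, 84.3 and 82.0 CPM against 144, 157, 132 and 184 CPM (0.83, SE 0.12, edgeR adjusted p = 0.0230). Angptl4 was highest in icOVA tumor 18, in which Adm and Car9 were lowest. None of 12 other HIF pathway genes and none of 21 TCA genes was called by edgeR, with 3 and 2 of them at an unadjusted p under 0.05. DESeq2 called 1 of the 12 higher and 1 of the 21 lower, and limma-voom called none of either list. Epas1, which encodes HIF-2α and was picked after its value was seen, had a log2 fold change of 1.02 (SE 0.31, edgeR adjusted p = 0.0886). The calls of all 6 named genes were lost without sgScramble tumor 1 or 5 or icOVA tumor 15 or 2, when at most 8 genes in the whole table were called, and were kept without the other 3 tumors.

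**Figure D5:**
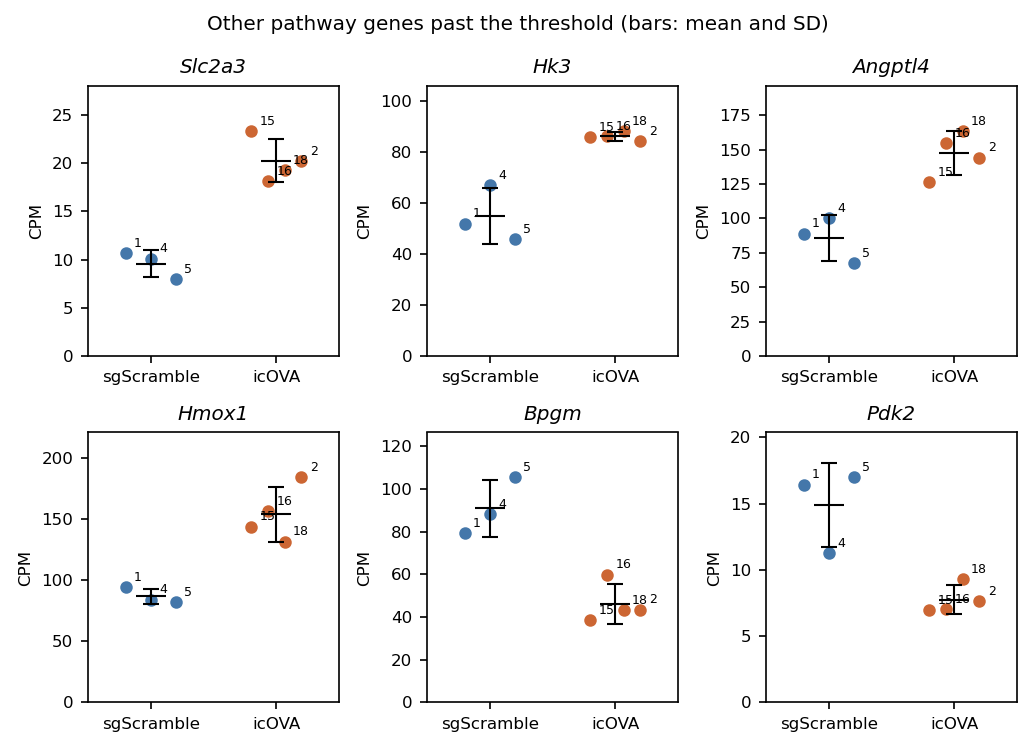
CPM in each tumor (vertical axes, from 0) of the 6 other pathway genes past the adjusted threshold, sgScramble in blue and icOVA in orange, with bars for the mean and SD. Slc2a3, Hk3, Angptl4 and Hmox1 lie higher and Bpgm and Pdk2 lower in every icOVA tumor, with Hk3 within 84.2 and 88.3 CPM in all 4.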

How the data were processed

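RNA of 7 s/c tumors was sequenced as single reads with TruSeq libraries. The labels name polyA RNA and the methods a stranded total RNA kit. The authors deposited raw counts per gene (22628 Ensembl genes and 1 OVA row) without normalization. The submitters' processing notes name mm10. The aligner, the counting tool, its strand setting, the annotation and any filter are not given in the sources used here. Symbols (22414 of 22628 genes), coordinates and lengths were taken from GENCODE M21 (GRCm38), and promoters from RefSeq (GRCm38.p6). No pair of tumors had identical counts.

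The 35 genes, the lists and the tests were chosen with earlier results of these data known. Counts were fitted with edgeR 4.0.16 (R 4.3.3): filterByExpr (minimum count 10, minimum total 15), TMM, quasi-likelihood test without covariates, Benjamini-Hochberg over 17489 genes, threshold 0.05. SE is the log2 fold change divided by the square root of F, and intervals are 95%. Spread used log2 CPM with a prior count of 2. The procedure was tested on simulated data. The smallest count of any of the 35 genes in a tumor was 57 (Car12). Alternatives were DESeq2 1.42.0, limma-voom (limma 3.58.1), other scalings and filters, a robust fit, other prior counts, Eno1 summed with Eno1b, and leaving out each tumor. Values per tumor are given for genes past the adjusted or unadjusted threshold, the 3 with the largest and the 3 with the smallest spread, the 3 with the highest level per length, and Hif1a, Vegfa, Slc2a1, Hk2, Ldha, Pgk1, Car9 and Pdk1; of the other lists, for genes past the adjusted threshold. Of the listed genes, Fbp1, Ldhc, Slc16a8, Epo, Krt5 and Krt1 were not analysed here.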

Additional observations from a re-analysis of the deposited data

Results flagged for a closer look

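The level of Pfkm in icOVA tumor 16 stood apart from the other 3 icOVA tumors by Dixon's test, at 5.51 log2 CPM against 4.95, 4.90 and 4.84, a gap of 0.846 of the group's range, past the 95% critical value for 4 samples. Tumor 16 was the highest icOVA tumor in 28 of the 35 genes, Pfkm among them. The skeletal muscle markers also summed highest in tumor 16, at 221 CPM. They were at 96.0, 98.7 and 11.4 CPM in icOVA tumors 15, 18 and 2. In sgScramble tumors 1, 4 and 5 they summed to 88.9, 121 and 13.4 CPM, with Pfkm at 49.8, 41.7 and 47.3 CPM. The part of the muscle markers was not tested. Dixon's test was applied to the 4 icOVA tumors in 41 genes, and about 2.05 such results would arise by chance. The sgScramble tumors, 3 in number, were not examined in this way.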

How the results depend on the processing

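With all tumors kept, DESeq2 called 1558 genes higher and 1278 lower, where edgeR called 588 and 444, and 7 rather than 4 genes of the other pathway lists as higher. The number of the 35 genes called higher was 0 rather than 1 with limma-voom and with no filter on low counts, where Slc16a3 lost its call. The sign of estimates near 0 turned for Aldoa (-0.0028 with limma-voom, -0.0055 with library totals), Pgam1 (-0.021, -0.015 and, with upper quartile scaling, -0.0027) and Pdk1 (-0.031 with limma-voom). The other 321 single-gene values with all tumors kept had the same sign and side of the threshold. With 1 tumor left out at a time, the genes called higher ranged from 0 to 1014 and lower from 0 to 716. No gene passed without sgScramble tumor 1 or 5 or icOVA tumor 15, with 3087, 2936 and 3415 genes at an unadjusted p under 0.05. Among the 35 genes 0 to 2 were called higher and 0 to 1 lower, and 13 to 29 had an estimate above 0. In the other lists 0 to 5 were higher and 0 to 3 lower. The median pooled SD ranged from 0.21 (without icOVA tumor 18) to 0.39. The sign turned in 36 single-gene values without 1 tumor, all of genes that did not pass the test, with log2 fold changes as follows: Gpi1 -0.14 to 0.060, Tpi1 -0.17 to 0.12, Slc16a1 -0.11 to 0.015, Egln1 -0.30 to 0.13, Car9 -0.28 to 0.27, Adm -0.50 to 0.45, Ankrd37 -0.43 to 0.22, Bnip3 -0.34 to 0.15, Hk2 -0.013 to 0.43, Aldoa -0.087 to 0.10, Pgam1 -0.11 to 0.13, Pdk1 -0.11 to 0.23, P4ha1 -0.063 to 0.16, Hk1 -0.062 to 0.17, Slc2a1 -0.076 to 0.32, Gapdh -0.057 to 0.21, Pkm -0.031 to 0.14. The cause was not tested, beyond the smaller number of tumors. No paired analysis was possible because no tumor number occurs in both groups.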
